A study of Mus musculus with 14 samples.

Results

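The 10 genes described here, Trp53, Mdm2, Mdm4, Cdkn1a, Atm, Atr, Chek1, Chek2, Trp53bp1 and Mdc1, encode the p53 protein and the core of the DNA damage checkpoint. They were chosen by name, by a rule that uses no measured value though earlier results of these data were known, from 21312 protein-coding genes that had at least 1 variant in whole-exome sequencing of 12 mouse mammary tumours, and all 10 were found. All tumours grew from p53null mammary fragments of Balb/c donor mice, placed in mammary fat pads and taken at a maximum diameter of 2 cm. Stiff tumours (A7, A8 and A9) grew in wild-type females in a gel of collagen 1 and basement membrane whose collagen had been crosslinked with 500 mM L-ribose, and soft tumours (A1, A2 and A3) in the same gel without crosslinking. KO host tumours (B4, B5 and B6) grew in LysM-Cre mice knocked out for GPX4, the enzyme that reduces lipid peroxides in membranes, with no gel named in the labels, and WT host tumours (B1, B2 and B3) in LysM-Cre mice wild-type for GPX4. For the gel tumours the collagen was kept for 10 to 14 days with or without L-ribose, mixed with basement membrane extract to 20% and injected into a cleared fat pad of hosts aged 3 to 4 weeks; donors were 8 to 10 weeks old. The labels describe the implants into LysM-Cre mice only as done in the same way. LysM-Cre is active in myeloid cells, so the knockout concerns host cells and not the implanted epithelium. Tumour DNA is a mixture of implanted p53null epithelium and host cells, which carry Trp53, and the counts do not say which cells a variant came from.

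In a cell with damaged DNA, the kinases ATM and ATR are activated at double-strand breaks and at stretches of single-stranded DNA. They phosphorylate the effector kinases CHK1 and CHK2, which delay the cell cycle, and with the help of 53BP1 and MDC1, proteins that gather on chromatin around a break, they stabilise p53. p53 switches on Cdkn1a, whose product p21 blocks cyclin-dependent kinases, while MDM2 and MDM4 hold p53 in check. In p53null mammary epithelium p53 itself is missing by design.

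Each value is the number of variants of a predicted class that the authors listed for a gene in a tumour. Protein-altering variants are those of HIGH impact, such as frameshifts and stops, plus those of MODERATE impact, such as missense changes. MODIFIER variants lie in introns, untranslated regions and flanks. Counts were not divided by gene length, so they are compared between tumours and not between genes, and the read depth behind them is unknown. The deposited tables give no positions or base changes, so no variant sequence can be shown and it is not known whether tumours share a variant. Inherited differences between Balb/c and the reference genome may be among the counts.

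The tumours held 8317 to 16544 protein-altering and 334678 to 695818 MODIFIER variants over all protein-coding genes. MODIFIER totals were 335629 to 379517 in stiff tumours and 381482 to 452751 in soft tumours, and 334678 to 633594 in KO host tumours and 511983 to 695818 in WT host tumours. A9 and B5 stood apart by fewer frameshifts, with 19.9 and 23.1 per 100 missense variants; the highest ratio was 30.8, in A8. The gel and host tumours come from separate experiments, so gel, host and any difference between sequencing runs cannot be told apart.

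Over all 12 tumours the 10 genes held 125 protein-altering variants, and 98 of them (78.4%) were in Trp53bp1. The other 9 genes gave 27, spread over 21 of 108 combinations of gene and tumour with at most 2 in any of them. These combinations numbered 5 of 27 in stiff tumours and 4 of 27 in soft tumours, and 5 of 27 in KO host tumours and 7 of 27 in WT host tumours. At least 1 protein-altering variant in at least 1 tumour was listed for 9 of the 10 genes, against 55.5% of all protein-coding genes. Only Trp53bp1 had one in every tumour, as did 7.47% of all genes.

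**Figure D1:**
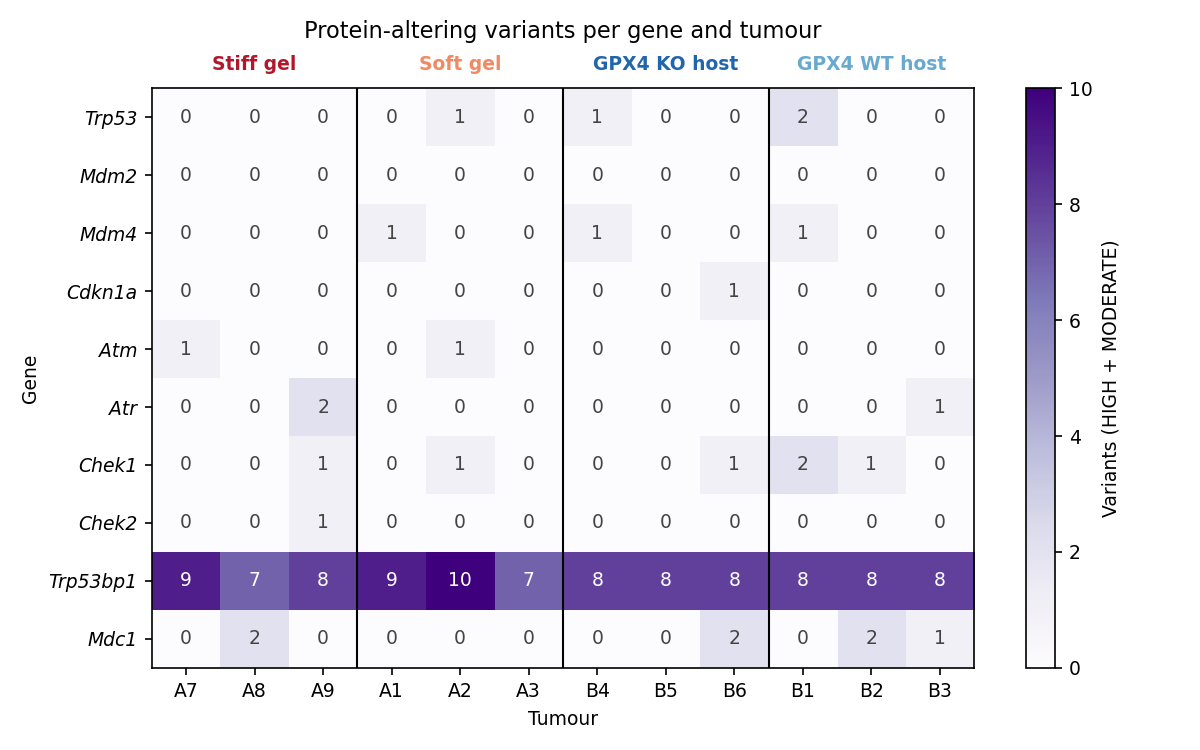
Protein-altering variants (HIGH plus MODERATE impact) of the 10 genes (down the page) in each of the 12 tumours (across), with the count printed in each cell and shown by colour. Trp53bp1 holds 7 to 10 variants in every tumour, Mdm2 holds 0 throughout, and the other genes hold 0, 1 or 2.

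Trp53 (ENSMUSG00000059552), which is null in the implanted epithelium, had no protein-altering variant in any stiff tumour and 1 missense variant in the soft tumour A2. It had 1 missense variant in the KO host tumour B4 and 2 in the WT host tumour B1. No tumour had a HIGH-impact or synonymous variant in it. The rest of its variants were MODIFIER, with 9, 0 and 3 in stiff tumours and 4, 7 and 4 in soft tumours, and 3, 1 and 5 in KO host tumours and 8, 14 and 5 in WT host tumours. The groups of each pair met or overlapped. Counts of small variants do not show the loss of a whole stretch of a gene, so they do not check the p53null label; only A8 had no listed Trp53 variant at all.

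Mdm2 (ENSMUSG00000020184), the ubiquitin ligase that marks p53 for destruction, was the only one of the 10 genes with no coding variant in any tumour, as was the case for 34.1% of all genes. Its MODIFIER counts were 0, 0 and 1 in stiff tumours, against 2, 6 and 3 in soft tumours. Mdm4 (ENSMUSG00000054387), which binds and blocks p53, had 1 missense variant in each of the soft tumour A1, the KO host tumour B4 and the WT host tumour B1. Synonymous and splice region variants of Mdm4 gave a LOW-impact count of 1, 2 and 1 in stiff tumours and 0, 0 and 1 in soft tumours. Cdkn1a (ENSMUSG00000023067), the p21 gene, had a single missense variant, in the KO host tumour B6, and at most 3 MODIFIER variants in any tumour.

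Among the apical kinases, Atm (ENSMUSG00000034218) had 1 frameshift in the stiff tumour A7 and 1 missense variant in the soft tumour A2. The stiff tumour A8 had an Atm variant predicted to create a premature start codon in the 5′ untranslated region, and no host tumour had a coding variant in Atm. Atr (ENSMUSG00000032409) had 2 missense variants in the stiff tumour A9 and 1 in the WT host tumour B3. Its synonymous variants were 1 in the KO host tumour B5 and 1 in the WT host tumour B1.

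The effector kinase gene Chek1 (ENSMUSG00000032113) had protein-altering variants in 5 tumours. It had 1 frameshift each in the stiff tumour A9, the KO host tumour B6 and the WT host tumour B2, 1 missense variant in the soft tumour A2 and 2 in the WT host tumour B1. Chek1 frameshifts were thus listed in 3 of the 4 groups, in 1 tumour of each. Chek2 (ENSMUSG00000029521), which acts downstream of ATM, had 1 missense variant, in A9, and no other coding variant. A9 therefore held protein-altering variants in Atr, Chek1 and Chek2 together, besides those of Trp53bp1.

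Trp53bp1 (ENSMUSG00000043909) encodes 53BP1, which is recruited to double-strand breaks and favours their repair by end joining. It had 9, 7 and 8 protein-altering variants in stiff tumours and 9, 10 and 7 in soft tumours. All 6 host tumours had 8. At least 7 protein-altering variants in every tumour, the lowest count of Trp53bp1, were found in 0.558% of all genes. That share takes no account of gene length or of inherited differences from the reference genome. By type, each tumour had 6 to 8 missense variants, 8 to 10 synonymous variants, 1 splice region variant and at least 1 frameshift. Frameshifts numbered 3, 1 and 1 in stiff tumours and 1, 2 and 1 in soft tumours, and 1, 1 and 2 in KO host tumours and 1 in each WT host tumour. A7 also had a stop gained listed, though its HIGH-impact count was 3, no more than its frameshifts. B3 had an in-frame deletion. The counts of Trp53bp1 were thus close in all groups, within 3 variants of each other over the 12 tumours.

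**Figure D2:**
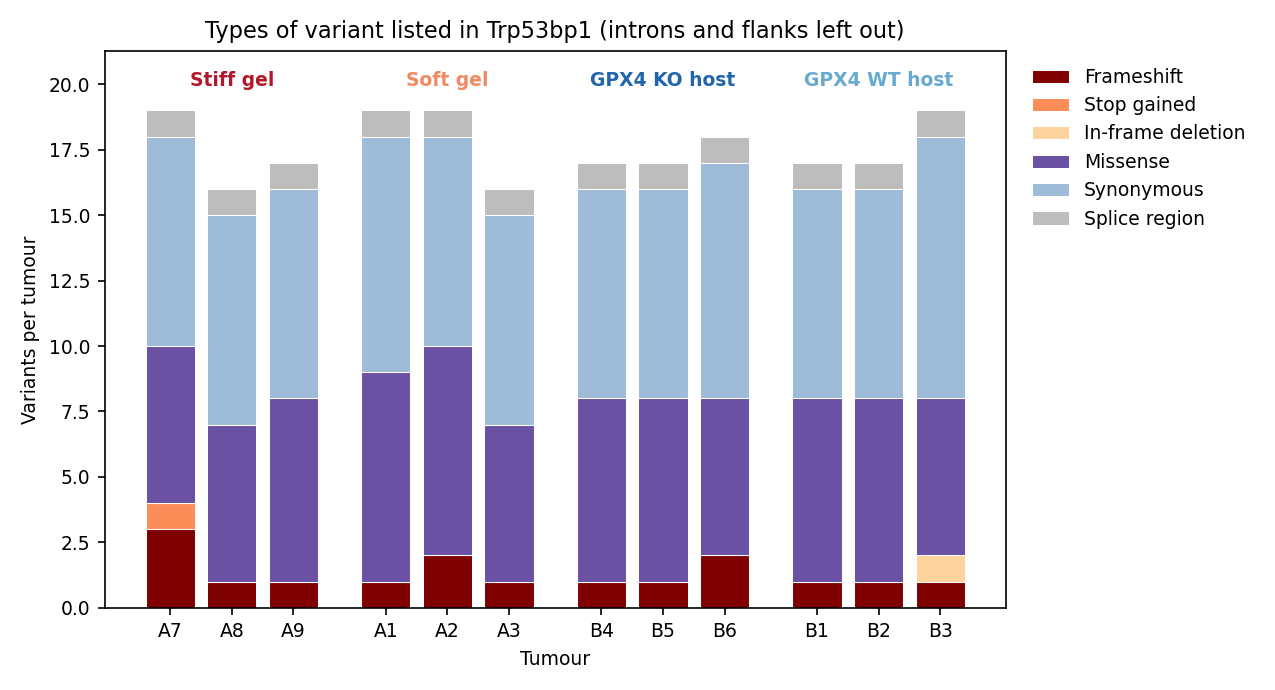
Coding and splice region variants of Trp53bp1 per tumour (vertical axis), stacked by predicted effect, for the 12 tumours by group. Variants in introns, untranslated regions and flanks are left out. A variant with more than 1 predicted effect is drawn once for each, so A7 shows 10 protein-altering effects for 9 variants. Each tumour has 6 to 8 missense, 8 to 10 synonymous and 1 to 3 frameshift variants, and the stop gained is seen in A7 only.

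Mdc1 (ENSMUSG00000061607), whose product binds phosphorylated H2AX beside breaks and holds 53BP1 and ATM there, showed a different pattern. Mdc1 had 1 frameshift and 1 missense variant together in the stiff tumour A8, the KO host tumour B6 and the WT host tumour B2. The WT host tumour B3 had 1 missense variant alone, and no soft tumour had a protein-altering variant in Mdc1. A8 and B6 also shared a count of 4 variants in the 3′ untranslated region, where the other tumours had 0. B2 and B6 were the tumours with frameshifts in both Chek1 and Mdc1.

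Summed over the 10 genes, protein-altering variants were 10, 9 and 12 in stiff tumours and 10, 13 and 7 in soft tumours. They were 10, 8 and 12 in KO host tumours and 13, 11 and 10 in WT host tumours. The sums averaged 10.3 ± 1.53 in stiff tumours and 10.0 ± 3.0 in soft tumours (SD, n = 3 each), a difference of 0.333. They averaged 10.0 ± 2.0 in KO host tumours and 11.3 ± 1.53 in WT host tumours (SD, n = 3 each), a difference of -1.33. On these counts all groups overlapped, and each difference was smaller than the SD of at least 1 of its groups. Per 10000 of each tumour's protein-altering variants the sums overlapped between stiff (9.695, 9.226 and 13.33) and soft tumours (10.09, 11.14 and 6.559). They were 9.211, 9.619 and 8.095 in KO host tumours. In WT host tumours they were 7.858, 7.838 and 7.938, lower and with no overlap, and the cause was not tested. HIGH-impact variants summed to 4, 2 and 2 in stiff tumours and 1, 2 and 1 in soft tumours, and to 1, 1 and 4 in KO host tumours and 1, 3 and 1 in WT host tumours. The highest sums, in A7 and B6, came from 3 Trp53bp1 frameshifts and 1 Atm frameshift, and from 2 Trp53bp1, 1 Chek1 and 1 Mdc1 frameshift.

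None of the 10 genes differed in protein-altering variants in any of the 3 comparisons by edgeR's quasi-likelihood test with Benjamini-Hochberg adjustment over all genes tested. The filter, a sum of at least 3 variants over the tumours compared, left 1 of the 10 genes between stiff and soft tumours (Trp53bp1), 4 between KO and WT hosts and 6 between gel and host tumours, so most of the 10 could not be tested within an experiment. No gene of any kind passed: 0 of 4312 between stiff and soft tumours (0.0%), with 106 at an unadjusted p under 0.05, and 0 of 5309 between KO and WT hosts (0.0%), with 199. Between gel and host tumours, 0 of 6830 passed (0.0%), with 414 at an unadjusted p under 0.05. DESeq2 also called 0 in each, with 7, 28 and 105 at an unadjusted p under 0.05. Trp53bp1 had a log2 fold change of -0.11 in stiff over soft tumours (adjusted p = 1.0). Groups without overlap were seen in none of the tested members; the share over all tested genes was 3.87% between stiff and soft tumours, 4.99% between KO and WT hosts and 0.205% between gel and host tumours.

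MODIFIER variants were frequent enough for all 10 genes to enter the test. Again none of the 10 passed in any comparison. Between stiff and soft tumours edgeR called 0 of 19525 genes (0.0%), with 1599 at an unadjusted p under 0.05, and DESeq2 called 55; between KO and WT hosts edgeR called 0 of 19331 (0.0%), with 891, and DESeq2 called 20. Between gel and host tumours edgeR called 1157 of 20757 genes (5.57%), 62 higher and 1095 lower in gel tumours, and 5.28% of genes were called lower. Scaled to each tumour's MODIFIER total it called 262 higher and 464 lower. The count of calls was 114 without A9 and 2620 without B5, the extremes when single tumours were left out. That comparison uses the same tumours as the other comparisons. Scaling to the total moved the median log2 fold change of all genes from -0.16 to 0.05 for stiff over soft tumours, from -0.30 to 0.06 for KO over WT hosts and from -0.20 to 0.23 for gel over host tumours. The values of the 10 genes are given beside these medians.

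**Figure D3:**
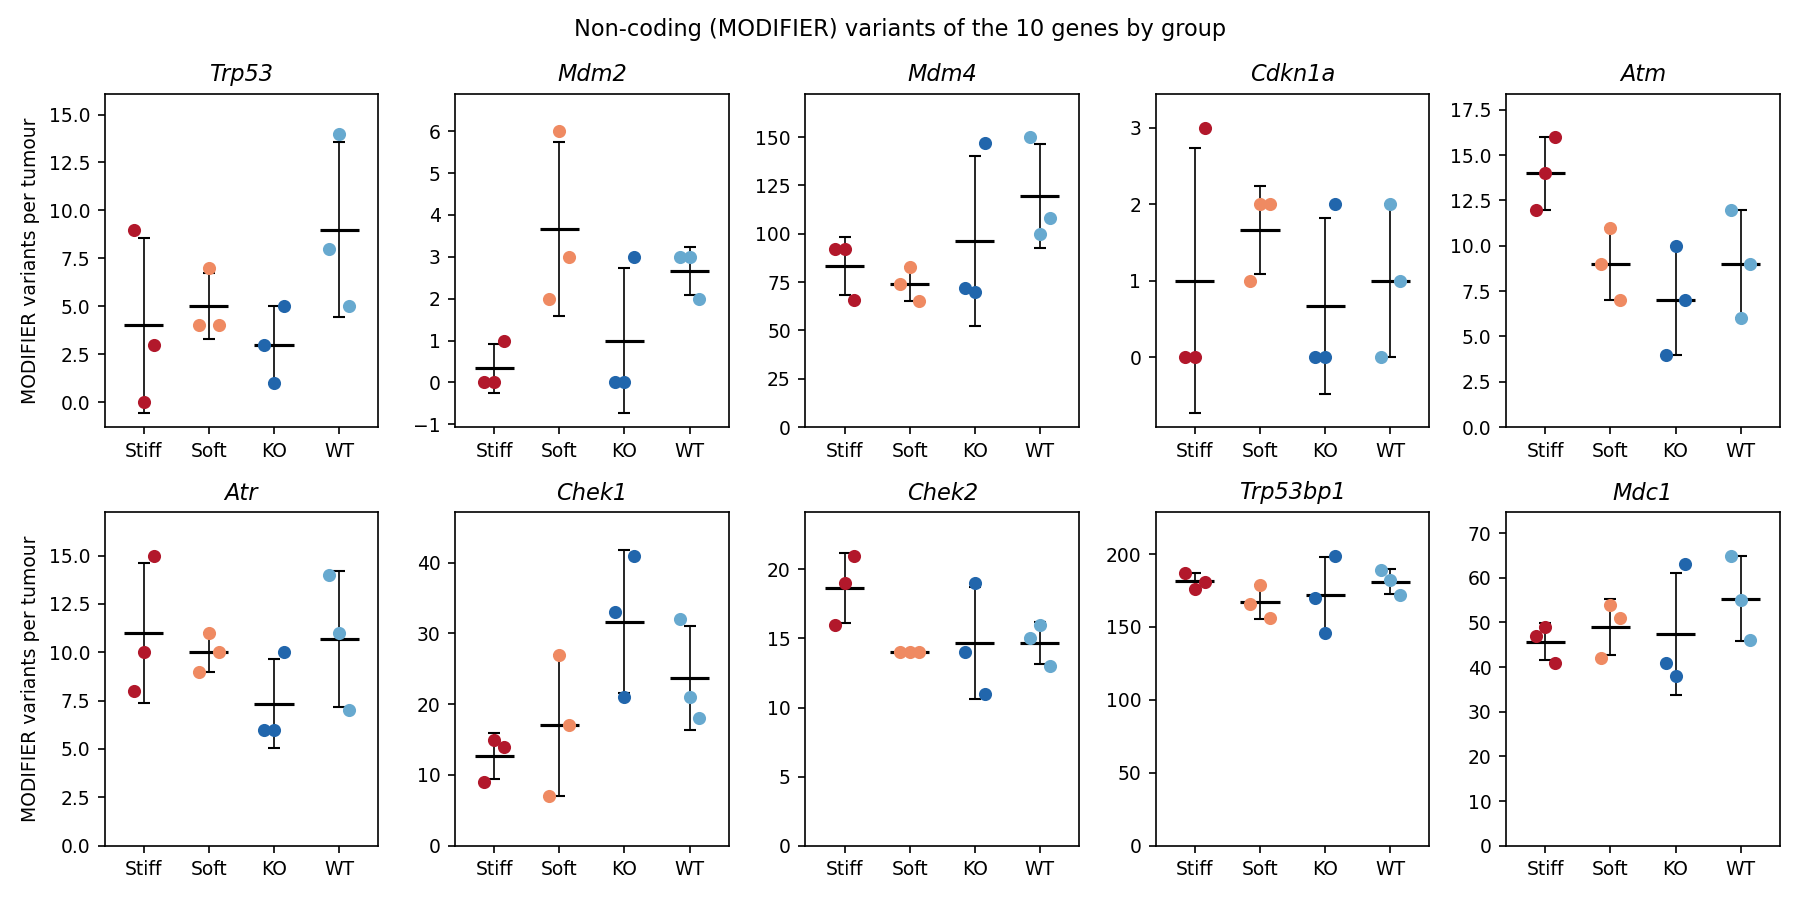
MODIFIER variants per tumour (vertical axis, a separate scale for each gene) of the 10 genes in stiff, soft, KO host and WT host tumours; points are tumours, bars the mean and SD of 3 tumours. Atm and Chek2 are higher and Mdm2 lower in all stiff than in all soft tumours. Chek1 has its highest mean in KO host tumours (21 to 41), which overlap with WT host tumours (18 to 32).

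In stiff against soft tumours, 3 of the 10 genes had groups that did not overlap in MODIFIER variants, and none passed the test. Over all tested genes 9.86% had such groups, 1.74% higher and 8.12% lower in stiff tumours. Atm had 12, 14 and 16 in stiff tumours, against 9, 11 and 7 in soft tumours. The means were 14.0 ± 2.0 and 9.0 ± 2.0 (SD, n = 3 each), a log2 fold change of 0.63 ± 0.33 (approximate SE; edgeR adjusted p = 0.659). Most of the Atm variants were intronic, 9 to 15 per stiff tumour and 6 to 10 per soft tumour. Chek2 had 16, 19 and 21 in stiff tumours, against 14 in each soft tumour (log2 fold change 0.41 ± 0.26, approximate SE; edgeR adjusted p = 0.724); with the median instead of the maximum over transcripts the change was -0.10. Mdm2, with the counts given above, was lower in stiff tumours (log2 fold change -3.05 ± 1.06, approximate SE; edgeR unadjusted p = 0.0207, adjusted p = 0.534). Mdm2 thus ran in the direction of most genes without overlap, and Atm and Chek2 in the less common one. Per 10000 of each tumour's MODIFIER variants the same 3 genes did not overlap, and neither did Mdm4 and Trp53bp1, both higher in stiff tumours. On that scale 8.81% of all tested genes were higher and 5.62% lower in stiff tumours without overlap.

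Between KO and WT hosts none of the 10 genes had groups without overlap in MODIFIER variants on counts as deposited, where 7.84% of all tested genes did. Per 10000 MODIFIER variants 3 did: Trp53 was lower (0.0299 to 0.0789 in KO host and 0.0977 to 0.237 in WT host tumours), and Chek1 (0.627 to 0.771 and 0.352 to 0.46) and Mdc1 (0.958 to 1.14 and 0.898 to 0.934) were higher in KO host tumours. Over all tested genes 5.51% were higher and 4.68% lower without overlap on that scale. Trp53 averaged 3.0 ± 2.0 in KO host tumours and 9.0 ± 4.58 in WT host tumours (SD, n = 3 each). That gave a log2 fold change of -1.55 ± 0.64 (approximate SE) with an unadjusted p of 0.0423 and an adjusted p of 0.858 by edgeR, and both groups held a tumour with 5. Chek1 stood the other way, with 33, 21 and 41 in KO host tumours and 32, 21 and 18 in WT host tumours (log2 fold change 0.42; edgeR adjusted p = 0.861). By mean, 8 of the 10 genes were lower in KO host tumours, 1 higher and 1 equal, and after scaling to the total 4 were lower and 6 higher, with Atm, Mdm4, Mdc1 and Trp53bp1 changing sign. Their median log2 fold change was -0.33, against -0.30 for all genes tested, and 0.05 against 0.06 after scaling to the total.

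Between gel and host tumours Chek1 had the smallest adjusted p of the 10 genes. It had 9, 15 and 14 MODIFIER variants in stiff and 7, 27 and 17 in soft tumours, against the host counts just given. The means were 14.8 ± 7.06 in gel tumours and 27.7 ± 9.03 in host tumours (SD, n = 6 each), a log2 fold change of -0.89 ± 0.31 (approximate SE; edgeR adjusted p = 0.102). Without the KO host tumour B5 the adjusted p was 0.0452, and over all alternatives it ranged from 0.0452 to 0.304. Mdm4 averaged 78.7 ± 12.2 in gel tumours and 107.8 ± 34.9 in host tumours (SD, n = 6 each), a log2 fold change of -0.45 ± 0.20 (approximate SE; edgeR adjusted p = 0.216). Its host counts were wide apart, at 72, 70 and 147 in KO host tumours and 150, 100 and 108 in WT host tumours, and after scaling to the total its change was 0.02. No member had gel and host tumours without overlap on counts as deposited, against 0.747% of all tested genes. Per 10000 MODIFIER variants Atr did, with 0.211 to 0.447 in gel tumours and 0.137 to 0.201 in host tumours, as did 1.2% of all tested genes in that direction and 0.674% in the other. By fitted fold change 6 of the 10 genes were lower in gel tumours and 4 higher, and after scaling to the total 1 was lower and 9 higher.

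Trp53bp1 had 187, 176 and 181 MODIFIER variants in stiff tumours and 166, 179 and 156 in soft tumours. It had 170, 146 and 199 in KO host tumours and 189, 182 and 172 in WT host tumours. Its lowest count, 146, was reached in every tumour by 1.14% of all genes, with no account taken of gene length. The gene averaged 174.2 ± 11.3 in gel tumours and 176.3 ± 18.4 in host tumours (SD, n = 6 each), a log2 fold change of -0.02 (edgeR adjusted p = 0.97). Its mean was nearly level between gel and host tumours, while the totals of the tumours were not. Among single tumours its lowest count, 146, was in B5, which had the lowest MODIFIER total (334678). Its highest, 199, was in B6 (total 633594). Scaled to the totals, Trp53bp1 was higher in gel tumours by a log2 fold change of 0.41 (edgeR adjusted p = 0.0359), where the median of all genes was 0.23. Per 10000 MODIFIER variants it averaged 5.08 ± 0.269 in stiff tumours and 4.04 ± 0.285 in soft tumours, and 3.83 ± 0.624 in KO host tumours and 3.05 ± 0.323 in WT host tumours (SD, n = 3 each).

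**Figure D4:**
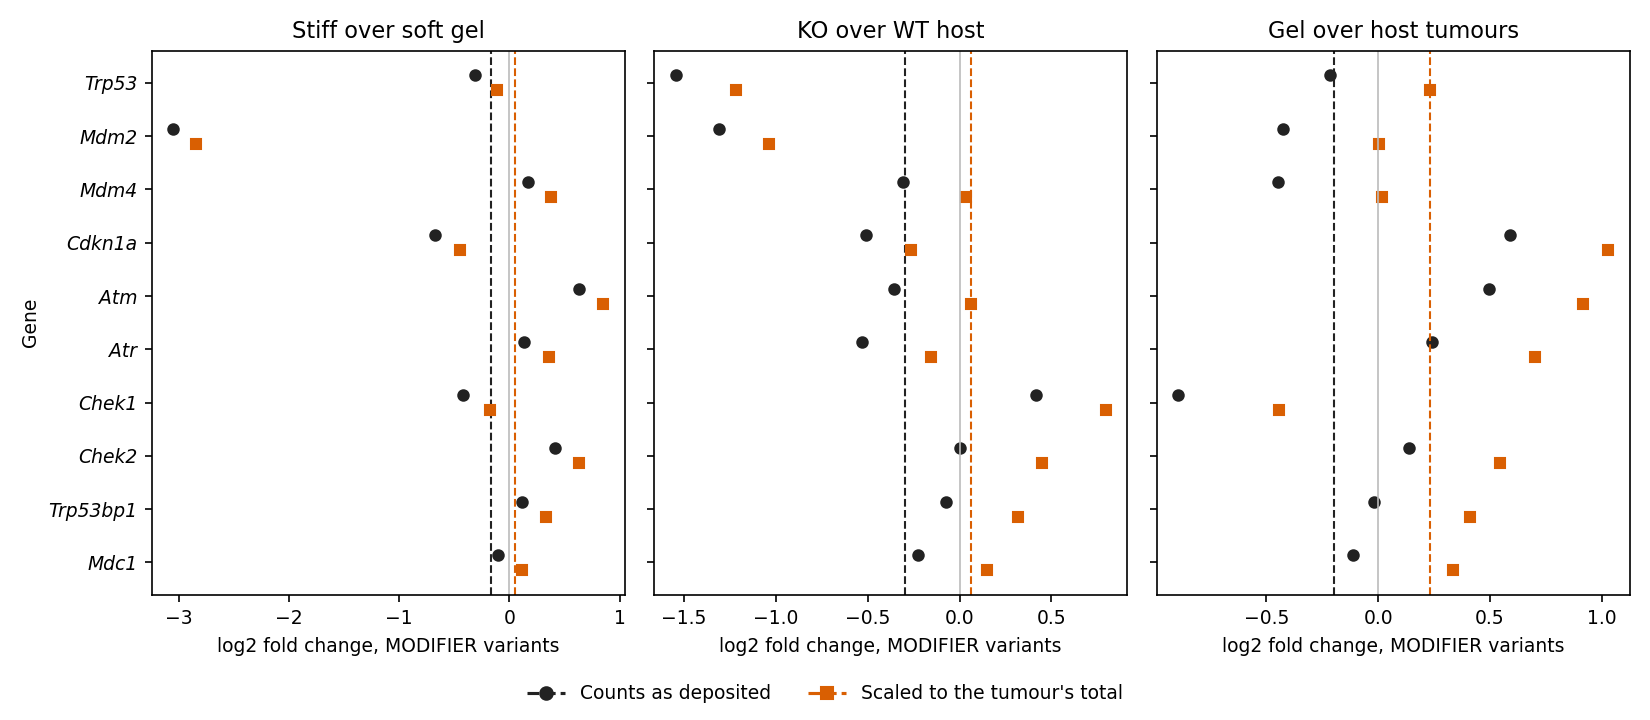
log2 fold changes of MODIFIER variants (horizontal axis) of the 10 genes (down the page) in the 3 comparisons, on counts as deposited (black circles) and scaled to each tumour's MODIFIER total (orange squares). Dashed lines are the medians of all genes tested, which move to the right with scaling, from -0.20 to 0.23 for gel over host tumours.

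Summed over the 10 genes, MODIFIER variants were 380, 375 and 361 in stiff tumours and 328, 394 and 329 in soft tumours, with overlap. Per 10000 of each tumour's MODIFIER variants they were 10.0, 10.5 and 10.8 in stiff tumours and 8.60, 8.70 and 8.01 in soft tumours, with no overlap. They were 8.01, 9.29 and 7.70 per 10000 in KO host tumours and 7.01, 6.95 and 7.44 in WT host tumours, again with no overlap. Trp53bp1 alone contributed the values per 10000 given above. Without it the sums were 5.09 to 5.57 in stiff and 4.21 to 4.75 in soft tumours, still with no overlap, and 4.04 to 4.93 in KO host and 3.87 to 4.30 in WT host tumours, which overlapped. The share was higher where the tumours' own MODIFIER totals were lower on average, and the part of those totals in it was not tested. On counts as deposited, Mdc1 and Atr had overlapping groups in both experiments. Mdc1 had 47, 49 and 41 in stiff and 42, 54 and 51 in soft tumours, and 41, 38 and 63 in KO host and 65, 55 and 46 in WT host tumours. Atr had 8, 10 and 15 in stiff and 9, 11 and 10 in soft tumours, and 6, 6 and 10 in KO host and 14, 11 and 7 in WT host tumours.

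The genes next to Trp53bp1 also held variants, in unlike numbers. In the order of the RefSeq gene table of GRCm38.p6, used here only for neighbours, Adal, Zscan29 and Tubgcp4 lie on one side and Map1a, Ppip5k1 and Ckmt1 on the other. Zscan29, Tubgcp4, Map1a and Ppip5k1 each had a protein-altering variant in every tumour, as did 7.47% of all genes. Adal had 0 to 3, with 0 in A2, A8 and B5, and Ckmt1 had 0 to 10, with 0 in B3. Ppip5k1, an inositol pyrophosphate kinase, had 24, 22 and 14 in stiff and 20, 20 and 21 in soft tumours, and 15, 10 and 21 in KO host and 20, 20 and 18 in WT host tumours. Map1a, which encodes a microtubule-associated protein, had 11 to 24 in stiff and 18 or 19 in soft tumours, and 11 to 26 in KO host and 18 to 28 in WT host tumours. Tubgcp4, a subunit of the gamma-tubulin ring complex, had 3 to 5 in every tumour. A variant between adjacent genes can be counted as MODIFIER for both of them.

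**Figure D5:**
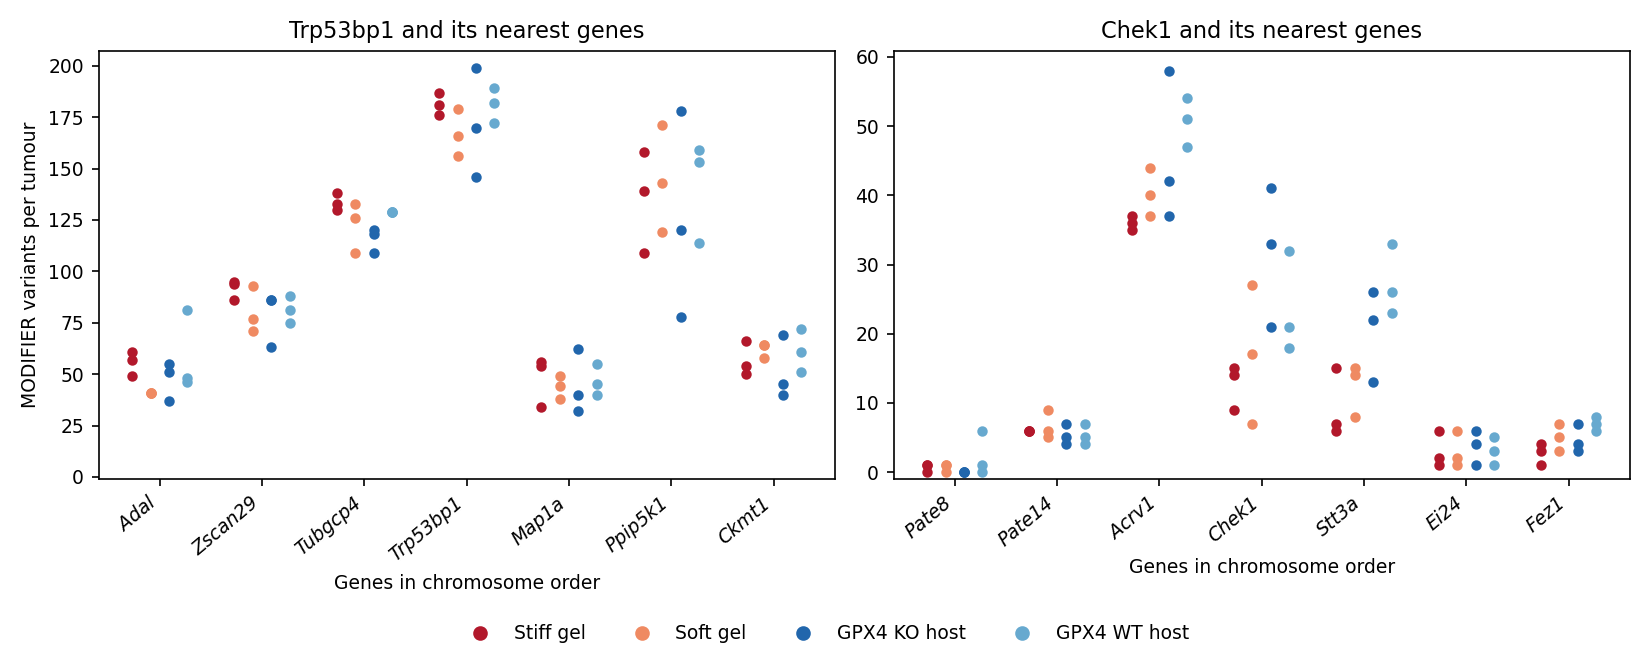
MODIFIER variants per tumour (vertical axis, a separate scale for each panel) of Trp53bp1 and Chek1 and of their 3 nearest protein-coding genes on each side, in chromosome order (horizontal axis); each point is a tumour, coloured by group. Trp53bp1 (146 to 199) lies among genes with 32 or more in every tumour, while beside Chek1 only Acrv1 reaches that level in every tumour.

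Beside Chek1 the pattern was mixed. Stt3a, a subunit of the oligosaccharyltransferase that attaches sugars to proteins, had 6, 7 and 15 MODIFIER variants in stiff and 8, 15 and 14 in soft tumours, against 26, 13 and 22 in KO host and 33, 26 and 23 in WT host tumours. Acrv1, on the other side, had 35 to 44 in gel tumours and 37 to 58 in host tumours, and the remaining neighbours Pate8, Pate14, Ei24 and Fez1 had at most 9. Next to Mdc1, Ier3, Flot1 and Tubb5 lie on one side and Nrm, Ppp1r18 and Dhx16 on the other. Tubb5, a beta-tubulin gene, had a protein-altering variant in every tumour (2 to 6), as did Flot1 (1 to 4). Dhx16, an RNA helicase gene, had 3, 0 and 0 in stiff and 1, 0 and 4 in soft tumours, and 0, 1 and 2 in KO host and 11, 8 and 5 in WT host tumours. Its KO and WT groups did not overlap, as for 4.99% of all tested genes, and it did not pass the test (edgeR adjusted p = 1.0).

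The genes most like Chek1, Trp53bp1 and Mdc1, the members with protein-altering variants in at least 4 tumours, were found by Pearson correlation of protein-altering counts over the 12 tumours among 4628 genes. These are the highest of many values and are given as a description. For Chek1 they were H2-M10.1 (r = 0.908), Adcy8 (r = 0.901) and Gm42517 (r = 0.894), each of which had its highest count in B1, Adcy8 also in A9. For Mdc1 they were Fam189a2 (r = 0.928), Hps1 (r = 0.915) and Myh1 (r = 0.909), each with its highest counts in A8, B2 and B6, Hps1 also in B3. For Trp53bp1 they were Adgre1 (r = 0.842), Kcnc1 (r = 0.819) and Tmed4 (r = 0.819), all with 2 variants in A2 and A7.

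The wider pathway was read from 3 lists. Of 26 regulators and relatives of p53, 19 had a protein-altering variant in at least 1 tumour and 1 had one in every tumour; of 31 listed p53 target genes the numbers were 18 and 1, and of 38 checkpoint sensors, mediators and effectors 25 and 6. None of these genes passed the test on protein-altering variants in any comparison. Summed protein-altering variants of the checkpoint list averaged 44.0 in stiff and 53.7 in soft tumours, and 36.7 in KO host and 59.3 in WT host tumours. A large part of both gaps was in a single gene, Pkmyt1, whose groups overlapped. Its mean differed by -7.0 for stiff minus soft and by -13.67 for KO minus WT host tumours. The median log2 fold change of the 12 tested checkpoint genes was 0.02 for stiff over soft tumours, against 0.00 for all genes. For KO over WT hosts that of the 15 tested checkpoint genes was -0.39, against -0.31 for all genes. The p53 targets stood the other way between hosts, with 11.7 in KO host and 6.67 in WT host tumours (median of 4 tested genes 0.65), and averaged 3.67 in stiff and 6.33 in soft tumours. By mean, 10 of these targets were higher in KO host tumours, 4 lower and 17 equal. The targets with the largest difference between hosts, Sfn and Thbs1, had their highest counts in the single tumour B6 (4 and 6). The regulators averaged 5.33 in stiff and 11 in soft tumours, and 10.3 in KO host and 14.3 in WT host tumours. By mean, 2 of them were higher in stiff tumours, 6 lower and 18 equal. The median log2 fold change of the 4 tested regulators was -2.06 for stiff over soft tumours, against 0.00 for all genes. For KO over WT hosts that of the 6 tested regulators was -0.27, against -0.31 for all genes.

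Within the checkpoint list Pkmyt1, the kinase that holds CDK1 inactive, had the largest differences in mean. Its protein-altering counts were 17, 10 and 0 in stiff and 10, 10 and 28 in soft tumours, and 5, 1 and 6 in KO host and 27, 4 and 22 in WT host tumours. The groups of each pair overlapped (edgeR adjusted p = 1.0 in both comparisons). Telo2, which stabilises ATM and ATR, had 14 to 16 in stiff and 14 or 15 in soft tumours, and 16, 13 and 13 in KO host tumours and 17 in each WT host tumour. Abraxas1, the scaffold of a BRCA1 complex, had 1, 3 and 2 in KO host tumours and 4, 4 and 5 in WT host tumours. The KO and WT groups of Telo2 and Abraxas1 did not overlap, as was the case for 4.99% of all tested genes, and neither gene passed the test. They were named for their large differences in mean between these groups, while that share is over genes not picked in this way. Timeless, which protects replication forks, had 5, 4 and 2 in stiff tumours and 6, 4 and 6 in soft tumours. Etaa1, an activator of ATR, had 0 in all gel tumours and 1 to 4 in 3 of the host tumours (B6, B1 and B3).

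Among the regulators of p53, Cop1, a ubiquitin ligase that acts on p53, had 5, 0 and 0 protein-altering variants in stiff and 3, 0 and 7 in soft tumours, and 2, 4 and 2 in KO host and 5, 4 and 5 in WT host tumours. Kmt5a, a lysine methyltransferase that modifies p53 and histone H4, had 0 in all KO host tumours and 2, 1 and 2 in WT host tumours. These groups did not overlap, as for 4.99% of all tested genes, and Kmt5a did not pass the test. Unlike the genes behind that share, Kmt5a was named for its large difference in mean. In the gel tumours Kmt5a had 0 in all stiff tumours and 4 in the soft tumour A2 alone. Ep300, an acetyltransferase of p53, had 3, 1 and 3 in stiff and 4, 5 and 3 in soft tumours. Cdkn2a, which encodes an inhibitor of MDM2, had 0 in all gel tumours, 2 in B4, 1 in B5 and 2 in B3. Twist1 had its variants in A2, B6 and B1, and Trp73, a p53 relative, had 2 in B6 and 1 each in A7 and A3.

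Of the p53 targets, Sfn, which encodes 14-3-3 sigma, had 0, 2 and 0 protein-altering variants in stiff tumours and 0 in soft tumours, and 3, 0 and 4 in KO host and 2, 0 and 0 in WT host tumours. Thbs1, the thrombospondin 1 gene, had 0, 2 and 3 in stiff and 0, 1 and 0 in soft tumours, and 0, 3 and 6 in KO host and 4, 0 and 0 in WT host tumours. Gtse1, whose product shuttles p53 out of the nucleus, had 0 in all stiff tumours, against 2, 0 and 4 in soft tumours, and 1, 0 and 6 in KO host and 3, 0 and 3 in WT host tumours. Sesn2, a stress-induced inhibitor of growth signalling, had 2 in B6 and 1 in A3.

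On MODIFIER variants, 5 genes of the lists passed the edgeR test between gel and host tumours, all lower in gel tumours: 1 of 26 regulators, 2 of 29 tested targets and 2 of 38 checkpoint genes. The share over all genes was 5.28%, so these counts are near that of any genes. Cop1 had 53, 69 and 37 in stiff and 76, 46 and 56 in soft tumours, against 127, 92 and 244 in KO host and 229, 238 and 170 in WT host tumours, with no overlap. Its log2 fold change was -1.69 ± 0.24 (approximate SE; edgeR adjusted p = 0.00402), and it passed under all 20 alternatives. Plk2, a kinase of the stress response, had 3 to 6 in gel tumours and 8 to 14 in host tumours (log2 fold change -1.32, edgeR adjusted p = 0.0368). Pkmyt1 (log2 fold change -1.35, edgeR adjusted p = 0.0252), Babam1 (-1.54, edgeR adjusted p = 0.0361) and Gtse1 (-0.79, edgeR adjusted p = 0.0327) overlapped between gel and host tumours. Apart from Cop1, each of them lost the call without A1, A3, A9, B1, B2 or B6 in turn, Plk2, Gtse1 and Babam1 also without A8, Plk2 and Babam1 without B4, Gtse1 and Babam1 without A2 and Gtse1 without A7. Scaling to the total ended the calls of Plk2 (adjusted p = 0.135), Gtse1 (adjusted p = 0.293) and Babam1 (adjusted p = 0.0722), TMM those of Plk2 and Gtse1, counting all biotypes those of all 4, and the median over transcripts that of Babam1. The highest adjusted p over the alternatives was 0.0804 for Pkmyt1 and 0.101 for Babam1. None of the list genes passed on MODIFIER variants between stiff and soft tumours or between KO and WT hosts.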

How the data were processed

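Exome capture, sequencing and variant calling were done by the authors; the build GRCm39 and the tools GATK, SAMtools 1.19.2 and BWA 2.2.1 are named, per the submitters' processing notes. How variants were called and filtered, and whether normal tissue was used, is not given in the sources used here, and 2 tail samples were not analysed here. The deposited tables hold whole-number counts of variants per transcript, split by predicted impact and effect by snpEff, per the file headers; a few other columns, for start and stop codon changes, are counts as well. For each class the count of a gene was the maximum over its protein-coding transcripts, with unlisted transcripts at 0, so a variant seen in different ways by different transcripts can count in several classes. The depth behind a count is unknown.

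Genes whose counts in a comparison summed to 3 or more entered the quasi-likelihood test of edgeR 4.0.16 in R 4.3.3, with library sizes set equal, p-values adjusted over all genes tested (Benjamini-Hochberg) and a threshold of 0.05. Gel against host tumours was a contrast of the 4 group means on the log scale, so its fold change need not match the ratio of pooled means. The printed SE, the size of the log2 fold change divided by the root of the F statistic, is approximate. DESeq2 1.42.0, other scalings, filters and collapsing rules, other impact classes and leaving out each tumour were alternatives. Labels say only that the tumours are separate samples, so the p-values rest on the spread between tumours only.

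The members and lists were chosen with earlier results of these data known. The named genes are the 10 members; per list and comparison up to 3 genes with the largest difference in mean protein-altering count; list genes past the threshold; and, for members altered in at least 4 tumours, the 3 genes of highest correlation and the 3 neighbours on each side. The p53 target Tnfrsf10b was looked for and not found among the protein-coding genes with a listed variant, so 31 of 32 targets were used. Symbols of 97.3% of the protein-coding genes matched the GRCm38.p6 gene table, which gave neighbours only.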

Additional observations from a re-analysis of the deposited data

How the results depend on the processing

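No paired analysis was possible because the groups compared share no replicate labels. For protein-altering variants edgeR called 0 genes between stiff and soft tumours and between KO and WT hosts under all 15 alternatives each; between gel and host tumours it called 0 to 3 when single tumours were left out, with 3 without the soft tumour A2, and 0 otherwise. For MODIFIER variants between stiff and soft tumours, DESeq2 called 55 genes and leaving out single tumours gave 0 to 4 (4 without A2). Between KO and WT hosts, scaling to the total gave 35, TMM 26 and DESeq2 20. Between gel and host tumours, against 1157, scaling to the total gave 726, DESeq2 1871, leaving out A9 and B5 together (chosen after seeing the data) 1810, and leaving out single tumours 114 (without A9) to 2620 (without B5). The difference in summed protein-altering variants of the 10 genes was -1.33 between KO and WT hosts and -0.5 between gel and host tumours, and per 10000 protein-altering variants 1.10 and 1.58; the cause was not tested. Its other alternatives moved it by less than the SD between tumours.

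The overlap of groups was also read per 10000 MODIFIER variants, a scale applied after seeing the data. On it 5 members had no overlap between stiff and soft tumours (3 on counts as deposited). Between KO and WT hosts 3 had none (0), and between gel and host tumours 1 (0). Over all tested genes 8.81% were higher and 5.62% lower without overlap in stiff against soft tumours. The shares were 5.51% and 4.68% in KO against WT hosts, and 1.2% and 0.674% in gel against host tumours. On counts as deposited they were 9.86%, 7.84% and 0.747% in either direction. Some fold changes of members changed sign, none of them past the threshold unless stated. Trp53bp1 in protein-altering variants of stiff over soft tumours had 0.0339 after scaling to the total and 0.30 with HIGH impact alone. Chek2 had -0.10 with the median over transcripts. Mdm4 had 0.0167 and Trp53bp1 0.41 (adjusted p = 0.0359) in gel over host tumours after scaling to the total, and Trp53bp1 had 0.23 with TMM and -0.0705 to 0.0413 when single tumours were left out. With counts of 0 to 2 in the members other than Trp53bp1, groups of 3 tumours and unknown read depth, differences in protein-altering variants were not detectable for most of the 10 genes.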
